A study of Mus musculus with 8 samples.

Results

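The Zfp genes of mouse chromosome 7 were examined for H3K36me3, trimethylated lysine 36 of histone H3, in embryonic stem cells with and without knockdown of Setd2. They were taken as the RefSeq protein-coding genes of chromosome 7 in mm10 whose symbol is Zfp and a number, which gave 90 of 21887 protein-coding genes with a median length of 14450.5 bp (2445 to 456017). Of these, 10 overlap another protein-coding gene, so that their peaks may be shared with it. The ChIP-seq data came from feeder-free mouse embryonic stem cells that carry a doxycycline-inducible Setd2 knockdown and grew as spheres in 2i medium with LIF. Knockdown cells received 1 µg/ml doxycycline for 4 days, and control cells received none. Each condition had 2 H3K36me3 and 2 input libraries, and MEK and GSK3 inhibitors (PD0325901 and CHIR99021) and LIF were present in all of them. The labels do not say whether the line is 1 clone. Peaks were called on both replicates merged, so each condition is 1 peak list, without a replicate spread and without a test between conditions. Intervals in brackets after a share are exact Clopper-Pearson 95% intervals, and those after a density ratio are exact Poisson 95% intervals. Both cover counting error only.

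Setd2 is the enzyme that places most H3K36me3 in mammalian cells. It travels with elongating RNA polymerase II, so the mark normally lies over the bodies of transcribed genes and is scarce at their promoters. Most Zfp genes encode proteins with arrays of C2H2 zinc fingers, and many of these also carry a KRAB domain, through which they recruit the corepressor Trim28 to transposable elements. These genes arose by tandem duplication and lie in clusters. Their fingers are usually encoded together in the last exon, and that exon is known to carry H3K9me3 and H3K36me3 in several cell types. The symbol also covers other proteins. Zfp36, for example, encodes tristetraprolin, an RNA-binding protein of mRNA decay with a different kind of zinc finger.

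The merged knockdown and control ChIP libraries kept 29416169 and 36244210 tags after duplicate removal, which took 23.9% of the knockdown and 14.7% of the control tags. The part of this depth difference in the results was not tested. The labelled cell type was checked against its markers in the peak lists. Of 10 stem cell genes 2 had a knockdown peak and 9 a control peak, among them Nanog, covered over 98.3% of its length in control. The exception in control was Dppa5a, without cover in either list. Of 12 genes of fibroblasts, primitive endoderm, trophoblast and neuroectoderm, none had a knockdown peak and 3 had a control peak, at 5.68% (Gata3), 27.2% (Nes) and 38.1% (Sox1) of gene length. Over all protein-coding genes 4.95% had a knockdown peak and 41.2% a control peak. The knockdown counts cannot check the cell type, since so few genes had a peak there, and Pou5f1, Sox2 and Nanog had none either. Col1a1, Gata6, Sox17, Cdx2 and Pax6 were without cover in both lists.

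The Zfp genes of chromosome 7 were widely marked in control cells, and a minority had a peak after Setd2 knockdown. A gene was called marked if it contained the midpoint of 1 or more peaks. By this rule 16 of the 90 were marked in knockdown (17.8%, 10.5 to 27.3), against 72 in control (80%, 70.2 to 87.7). Of all protein-coding genes, 4.95% were marked in knockdown and 41.2% in control. All 16 were also marked in control, so 22.2% (13.3 to 33.6) of the control-marked members kept a peak, where the share over all control-marked genes was 10.6%. No member had a knockdown peak alone. Most knockdown-marked genes of any kind were like this: of 1084 protein-coding genes marked in knockdown, 956 were also marked in control and 128 were not. The share of gene length under peaks had a median of 0 in knockdown and 39.4% in control over the 90 genes, beside 0 in both lists over all protein-coding genes. Summed over members, peaks covered 66449 bp in knockdown and 586196 bp in control, so that the knockdown length was 11.3% of the control length. The same percentage was 2.77 over all protein-coding genes. It was 44.4 over the Zfp genes of chromosome 4 and 5.36 over those of the chromosomes other than 4 and 7. The annotated span of a single gene, Zfp936, held 53.3% of the members' knockdown-covered length and 6.41% of their control-covered length. Most of its knockdown cover, 28644 bp, lies in a long stretch of that span upstream of its RefSeq start site, and whether this stretch belongs to the same gene could not be settled from the sources used here. Counted from that start site alone, Zfp936 held 18.0% of the knockdown-covered length, and the summed lengths of all members were 37805 bp in knockdown and 560820 bp in control, a ratio of 6.74%. Without Zfp936 the summed lengths were 31004 bp in knockdown and 548608 bp in control. That is a ratio of 5.65% with the largest contributor left out. No gene was left out of the 5.36% of the Zfp genes outside chromosomes 4 and 7, so the like value for the members is 11.3%.

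**Figure D1:**
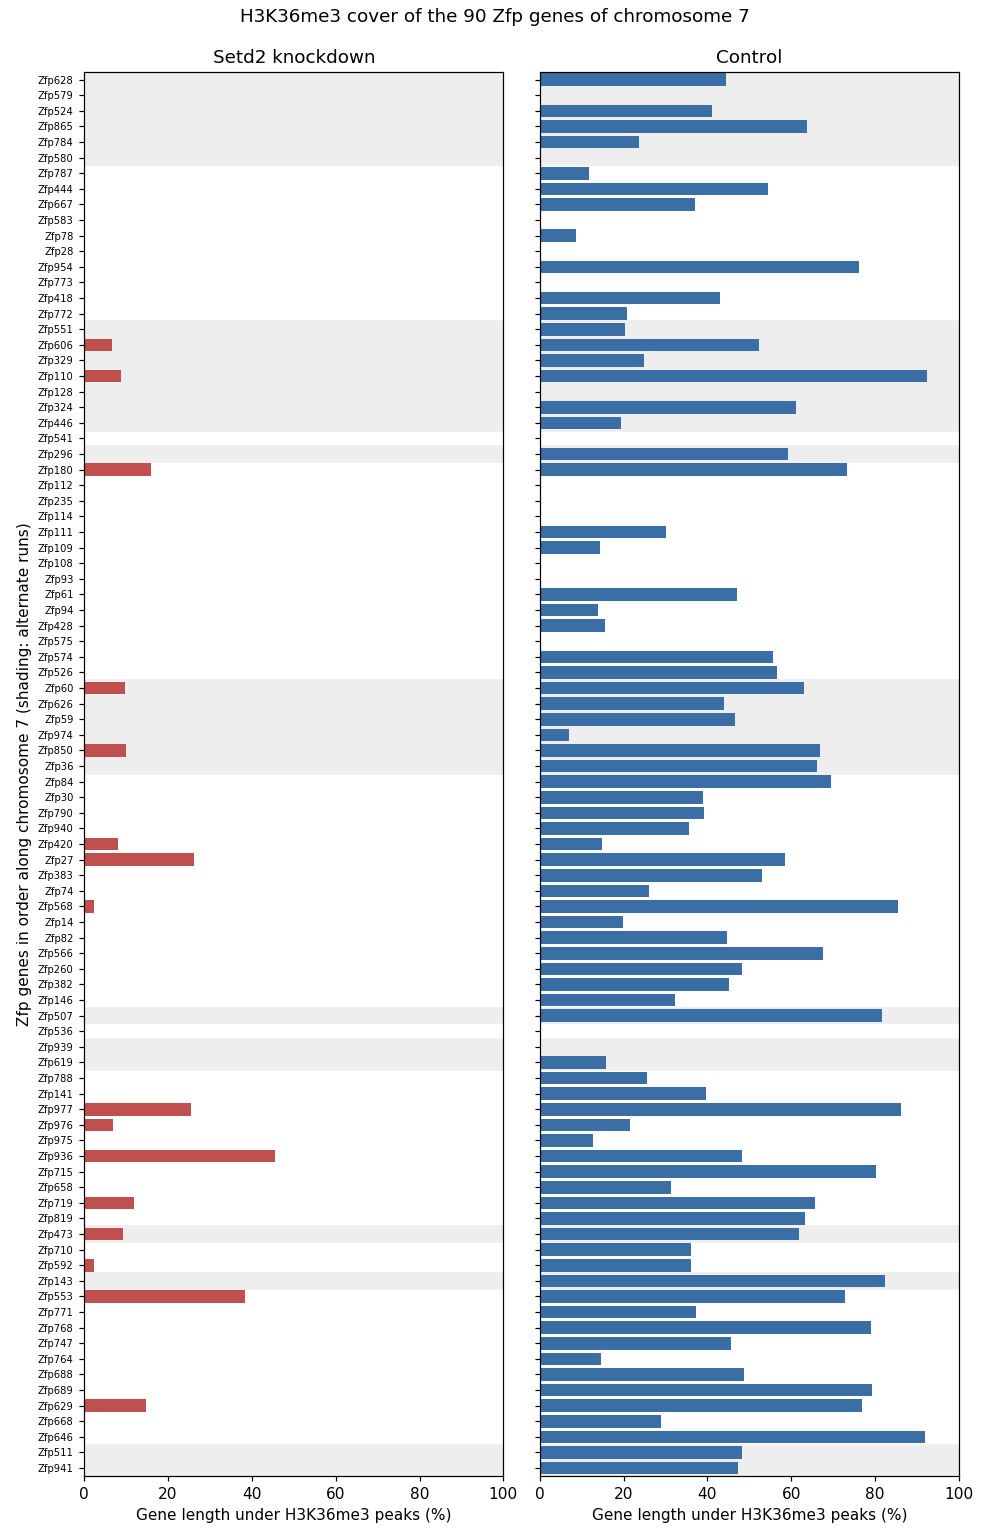
Share of gene length under H3K36me3 peaks (%) for each of the 90 Zfp genes, in order along chromosome 7 from top to bottom, in Setd2 knockdown (left) and control (right). Bars are values of 1 merged peak list per condition, and shading separates neighbouring runs of genes. In knockdown 16 genes have a bar, the longest at Zfp936 (45.5%), whereas 75 have one in control.

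Other genes were counted by the same rule. Of the 173 other protein-coding genes that lie within the runs of Zfp genes, 11 had a knockdown peak (6.36%, 3.22 to 11.1) and 73 had a control peak (42.2%, 34.7 to 49.9). They include zinc finger genes whose symbols fall outside the rule, among them Zfp607a, Zfp780b, Zscan18 and Peg3. The 178 vomeronasal receptor genes of chromosome 7, which encode pheromone receptors of sensory neurons and lie partly between these clusters, had no base pair under a peak in either list. Of the 27 Zfp genes of chromosome 4, 12 had a knockdown peak and 21 a control peak, and 11 of the 21 (52.4%, 29.8 to 74.3) were marked in both lists. For the 250 Zfp genes of the remaining chromosomes these numbers were 30 and 164, and 27 of the 164 (16.5%, 11.1 to 23.0) were marked in both. These shares are descriptions of 2 peak lists, and no difference between gene sets was tested.

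Promoter sequences were set beside the peaks, because the mark is normally scarce there. RefSeq windows of 250 bases before to 50 after a transcript start (GRCm38.p6, the mm10 build) were matched for 82 of the 90 genes, with 92 windows in all. Only 1 of the 92 was touched by a knockdown peak and only 1 by a control peak, and both times it was the same window of Zfp629. Of 21263 windows of protein-coding genes, knockdown peaks touched 0.103% and control peaks 1.71%. The windows shown are those of the 3 members with the most knockdown-covered sequence (Zfp936, Zfp180 and Zfp27), the touched window of Zfp629, and that of Zfp143, the member with the most control-covered sequence and none in knockdown. Where a gene had several windows and none was touched, the one at the most 5′ start was taken. Sequences are RefSeq's, written 5′ to 3′ on the strand of the gene, and capitals mark CpG dinucleotides.
Zfp936, chr7:43177340-43177639, plus strand: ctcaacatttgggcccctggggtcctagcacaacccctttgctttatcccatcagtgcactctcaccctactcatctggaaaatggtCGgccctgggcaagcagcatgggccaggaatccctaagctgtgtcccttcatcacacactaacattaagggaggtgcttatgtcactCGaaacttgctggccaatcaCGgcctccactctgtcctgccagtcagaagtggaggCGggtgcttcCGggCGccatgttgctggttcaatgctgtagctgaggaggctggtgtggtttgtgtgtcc
Zfp180, chr7:24081647-24081946, plus strand: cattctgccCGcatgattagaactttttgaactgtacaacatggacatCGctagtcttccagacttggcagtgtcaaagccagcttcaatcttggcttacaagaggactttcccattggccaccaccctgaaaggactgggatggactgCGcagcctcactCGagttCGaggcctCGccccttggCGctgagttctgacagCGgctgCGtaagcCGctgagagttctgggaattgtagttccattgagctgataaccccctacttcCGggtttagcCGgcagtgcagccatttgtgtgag
Zfp27, chr7:29906483-29906782, minus strand: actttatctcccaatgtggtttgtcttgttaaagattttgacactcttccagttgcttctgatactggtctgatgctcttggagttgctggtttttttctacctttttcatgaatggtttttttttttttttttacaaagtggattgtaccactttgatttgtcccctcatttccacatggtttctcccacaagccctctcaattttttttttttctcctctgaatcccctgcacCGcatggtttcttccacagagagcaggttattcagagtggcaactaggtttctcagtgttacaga
Zfp629, chr7:127614384-127614683, minus strand: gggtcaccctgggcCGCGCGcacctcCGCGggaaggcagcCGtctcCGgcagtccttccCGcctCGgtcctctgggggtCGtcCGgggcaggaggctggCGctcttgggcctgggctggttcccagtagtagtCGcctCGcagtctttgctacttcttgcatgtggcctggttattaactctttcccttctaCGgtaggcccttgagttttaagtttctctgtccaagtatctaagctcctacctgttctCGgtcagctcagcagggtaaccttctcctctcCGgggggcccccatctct
Zfp143, chr7:110061452-110061751, plus strand: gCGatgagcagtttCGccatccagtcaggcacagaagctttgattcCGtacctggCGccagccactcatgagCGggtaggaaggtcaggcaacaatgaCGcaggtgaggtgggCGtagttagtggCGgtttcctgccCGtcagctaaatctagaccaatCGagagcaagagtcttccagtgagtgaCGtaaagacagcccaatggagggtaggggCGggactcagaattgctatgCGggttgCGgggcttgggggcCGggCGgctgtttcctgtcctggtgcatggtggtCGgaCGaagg

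The windows differed widely in CpG content. That of Zfp27 held 1 CpG, Zfp936 had 6, Zfp180 had 12, Zfp629 had 17 and Zfp143 had 18. Over the windows at the most 5′ start the median number of CpGs was 12 (range 1 to 42) for the 15 kept members with a sequence, 15 (2 to 35) for 51 members with a control peak alone and 11 (1 to 27) for 16 members without a control peak. The ranges overlapped almost fully. The motifs CCAAT and TATAAA, which share no overlap, were searched on both strands. CCAAT was found in 43.5% of the 92 windows of members and in 38.2% of all 21263 windows, and TATAAA in 6.52% and 12.6%. The windows of Zfp936, Zfp180, Zfp27 and Zfp143 held CCAAT, that of Zfp629 held neither motif, and none of the 5 held TATAAA. A match describes these letters and is not evidence of a bound factor.

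The annotated span of Zfp936 had the most knockdown cover of the 90 members, most of it in the upstream stretch whose place in the gene is in doubt. Its annotated span at chr7:43114166-43192109 (plus strand) was covered over 35445 bp by 9 knockdown peaks and over 37588 bp by 7 control peaks, or 45.5% and 48.2% of 77944 bp. Of the 7 control peaks 6 were overlapped by knockdown peaks. The exception lay at chr7:43178428-43182285, where the control list had a peak of 279 tags and the knockdown list had none. Conversely 2 knockdown peaks of Zfp936, at chr7:43138444-43139950 and chr7:43169193-43171319, shared no base with a control peak. They were the only such peaks among the 24 knockdown peaks of the members.

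The RefSeq promoter window of Zfp936 lies 63424 bp inside the annotated span, and the cover on either side of it differed. Upstream of that start site 7 knockdown peaks covered 45.2% of the sequence and 5 control peaks covered 40.0%. From the start site to the gene end, a stretch of 14520 bp that holds the 3′ part of the gene, 2 knockdown peaks covered 46.8% and 2 control peaks covered 84.1%. The knockdown list thus had slightly more cover than the control list in the long upstream stretch and less in the 3′ stretch. The treatment of multiply aligning reads is not stated in the labels or headers, and the part of repeated sequence in these values was not tested. The promoter windows of Zfp109, Zfp580 and Zfp541 also lie far inside their annotated spans, by 14741, 13013 and 10070 bp. Covered shares and bins of these genes use the whole span. Of them only Zfp109 had cover, 3549 bp in control.

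**Figure D2:**
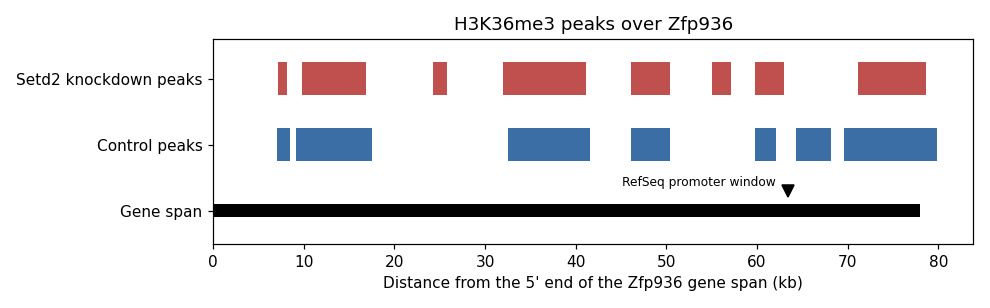
Peaks of the Setd2 knockdown list (upper row) and the control list (middle row) over Zfp936, by distance in kb from the 5′ end of the annotated span (black bar), with the RefSeq promoter window as a triangle. Upstream of the triangle 5 of the 7 knockdown peaks overlap a control peak and 2 do not, while downstream of it the control peaks cover 84.1% and the knockdown peaks 46.8%.

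The other 15 kept members had 1 knockdown peak each, of 1056 to 4115 bp within the gene. Zfp180, at the head of a run of 14 Zfp genes, was covered over 15.9% of its length in knockdown and 73.3% in control. Zfp27 was covered over 26.3% in knockdown and 58.6% in control, and its direct neighbour Zfp420, whose human counterpart restrains p53, over 8.15% and 14.8%. Zfp977 had 25.4% in knockdown and 86.3% in control, and Zfp976, the next Zfp gene, 6.83% and 21.6%. Zfp850 had 9.94% in knockdown and 67.0% in control, and Zfp60 had 9.67% and 63.0%. In each of these genes the knockdown cover was below the control cover.

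The remaining 8 kept members, like Zfp180, Zfp850 and Zfp60, had no direct Zfp neighbour that was marked in knockdown. Zfp553, a gene of 5137 bp, had the second highest knockdown share, 38.4%, against 72.9% in control. Zfp629 had 14.6% in knockdown and 76.9% in control, and Zfp719 had 11.9% and 65.6%. Zfp473, which corresponds to a human factor of histone mRNA processing, had 9.23% in knockdown and 61.9% in control. Zfp110, known as NRIF for its binding to the p75 neurotrophin receptor, had 8.71% in knockdown and 92.5% in control, the highest control share of all members. Zfp606 had 6.53% in knockdown and 52.4% in control. Zfp592 had 2.41% and 36.0%. Zfp568, a KRAB protein gene that silences a placental form of Igf2 in the mouse, had 2.38% in knockdown and 85.4% in control. Across these 15 genes the knockdown length had a median of 18.2% of the control length.

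In 59 members that had control cover, no base pair was covered in knockdown, and 18 of them were covered over at least 50% of their length in control, a state reached by 30 of the 90 members and by 17% of all protein-coding genes. Zfp143, which encodes an activator bound at many promoters, had 27769 bp (82.4%) under 3 control peaks. Zfp507 had 25022 bp (81.6%) under 6 and Zfp710 24436 bp (36.0%) under 5. Zfp715 (13460 bp), Zfp141 (12808 bp), Zfp444 (11214 bp), Zfp59 (9687 bp), Zfp84 (8955 bp), Zfp566 (8912 bp) and Zfp382 (8560 bp) completed the 10 with the most control-covered sequence. Zfp715, the next Zfp gene after Zfp936, and Zfp141 are both from the run of Zfp936. Zfp36 was covered over 66.1% in control and Zfp296, a factor enriched in pluripotent cells, over 59.2%, and neither had knockdown cover.

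A group of 15 members had no base pair under a peak in either list, which was the case in control for 55.2% of all protein-coding genes. It comprised Zfp541, a gene of male meiosis, and Zfp536, a gene of the brain that spans 456017 bp and is the longest member. Zfp112, Zfp235, Zfp114, Zfp108, Zfp93 and Zfp575 are all from the run that starts with Zfp180. The others were Zfp579, Zfp580, Zfp583, Zfp28, Zfp773, Zfp128 and Zfp939. Zfp784, Zfp296 and Zfp526 had control cover from peaks with their midpoint outside the gene and are not counted as marked.

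By position the members formed 17 runs when neighbours up to 1 Mb apart were joined, 11 with several members (84 genes) and 6 genes that stood alone. Zfp genes with a knockdown peak were found in 8 of the 17. No Zfp gene of the 2 runs nearest the start of the chromosome had one. In the run Zfp628 to Zfp580, 0 of 6 members were marked in knockdown and 3 in control. In the run Zfp787 to Zfp772 these numbers were 0 and 7 of 10. The most covered in control were Zfp865 (63.7%) in the first run and Zfp954 (76.2%) in the second. The next run, Zfp551 to Zfp446, had 2 of 7 members marked in knockdown (Zfp606 and Zfp110) and 6 in control.

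The run Zfp180 to Zfp526 was the least marked of the large runs in control. Of its 14 members 1 was marked in knockdown and 7 in control, and its first gene Zfp180 was the highest in both lists. Zfp60 to Zfp36 had 2 of 6 members marked in knockdown (Zfp60 and Zfp850) and all 6 in control. The run Zfp84 to Zfp146 packs 15 Zfp genes into 401 kb with no other protein-coding gene between them. All 15 were marked in control, over 14.8% (Zfp420) to 85.4% (Zfp568) of their length, and 3 in knockdown, over at most 26.3% (Zfp27). Its summed knockdown cover was 5947 bp and its summed control cover 124189 bp.

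The run Zfp788 to Zfp819 held most of the knockdown cover only when the whole annotated span of Zfp936 was counted. Of the run's cover 28644 bp lie in the upstream stretch whose place in the gene is in doubt. All 10 members were marked in control and 4 in knockdown (Zfp977, Zfp976, Zfp936 and Zfp719). Peaks covered 42840 bp in knockdown and 111987 bp in control, a ratio of 38.3%. Without Zfp936 its 9 other members had 7395 of the remaining 31004 bp in knockdown and 74399 bp in control. That ratio of 9.94% was still the highest among runs of several members. It was 9.16% in Zfp60 to Zfp36, 9.01% in Zfp180 to Zfp526 and 7.57% in Zfp553 to Zfp646. Lower values were 6.92% in Zfp551 to Zfp446, 4.79% in Zfp84 to Zfp146, 2.89% in Zfp710 to Zfp592 and 0 in 4 runs. The most covered control gene of this run was Zfp977. Zfp819, whose protein binds Trim28 in mouse stem cells, had no knockdown cover and 63.2% in control.

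In the distal run Zfp553 to Zfp646, 2 of 10 members were marked in knockdown (Zfp553 and Zfp629) and all 10 in control, where Zfp646 was the most covered (91.9%). The smaller runs held 2 genes each. Of Zfp710 and Zfp592, Zfp592 had a knockdown peak. Zfp511 (48.4% in control) and Zfp941 (47.4%) had none. Of Zfp939 and Zfp619, Zfp619 had cover in control alone, over 15.7%. Of the 6 genes that stood alone, Zfp473 was marked in both lists, Zfp143 and Zfp507 in control alone, and Zfp296, Zfp541 and Zfp536 in neither.

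The position of the mark along the genes was measured in 74 members of at least 5 kb with a known strand, each cut into 10 equal bins from the 5′ to the 3′ end. In knockdown the mean covered share was 0.121% in bin 1, 1.99% in bin 5, 5.66% in bin 8, 11.1% in bin 9 and 5.78% in bin 10. In control it was 4.06% in bin 1, 41.5% in bin 5, 50.5% in bin 8, 57.2% in bin 9 and 46.2% in bin 10. Both lists were therefore most often covered in bin 9. Over the 13338 protein-coding genes outside this set, bin 9 had 0.945% in knockdown and 28.2% in control, and bin 1 had 0.130% and 4.38%. In bin 1 the members' knockdown value came from Zfp936 alone and was 0 without it, while the control value was near that of other genes. Bin 9 was 11.8 times as covered in knockdown and 2.03 times in control. Zfp genes of other chromosomes (217 genes) had 4.42% in knockdown and 40.0% in control in bin 9. Without Zfp936 the members' value in bin 9 was 11.2% in knockdown and 57.2% in control.

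**Figure D3:**
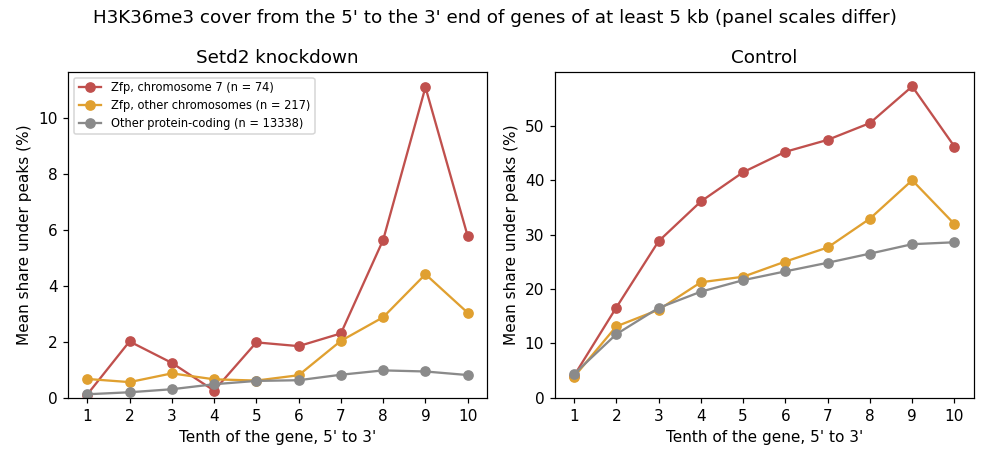
Mean share of each of 10 equal gene bins under H3K36me3 peaks (%), from the 5′ to the 3′ end, in Setd2 knockdown (left) and control (right), for Zfp genes of chromosome 7, Zfp genes of other chromosomes and all protein-coding genes outside the first set. The 2 panels have different scales. The first set is highest in bin 9, at 11.1% in knockdown and 57.2% in control.

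Counted by gene, 14 of the 15 members with knockdown cover in this set were covered more on the 3′ side of their middle, and 50 of the 62 with control cover. Among the other genes 67.6% of those with knockdown cover and 78.1% of those with control cover were. The exception in knockdown was Zfp629, whose peak lay at 20.3% of the gene from the 5′ end and touched the promoter window shown above. Of the 23 knockdown peaks with a known strand, 15 had their midpoint in the last 30% of the gene, against 51 of 122 control peaks (41.8%). In other protein-coding genes with a known strand 45.2% of knockdown peaks and 41.9% of control peaks did, so the control share of members was near that of other genes. Outside Zfp936 there were 11 of 14 knockdown peaks, at 76.7% (Zfp719) to 92.6% (Zfp180) of the gene. Besides Zfp629 only Zfp592 (61.2%) and Zfp553 (63.5%) had theirs further upstream. The last exon, where the fingers of such genes usually lie, was not mapped here, since the gene table used gives no exons.

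Knockdown peaks in members lay almost wholly inside control peaks. Of the 24 knockdown peaks with a midpoint in a member, 22 (91.7%, 73.0 to 99.0) shared at least 1 bp with a control peak. The share over the whole knockdown list was 73.2%. For knockdown peaks in other protein-coding genes it was 80.4% (78.2 to 82.5), which lies inside the members' interval. In length, 91.8% of the members' knockdown cover was also covered in control. Of the members' 131 control peaks, 21 (16.0%, 10.2 to 23.5) shared sequence with a knockdown peak, beside 6.52% of the whole control list and 3.78% (3.55 to 4.03) of the control peaks in other protein-coding genes. By the stricter rule that each peak covers at least 50% of the other, 25% of the members' knockdown peaks and 4.58% of their control peaks qualified.

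The overlapped control peaks were the long and dense ones. Their median length was 8035 bp, against 3146 bp for the 110 that were not overlapped, and their median density was 1.76 tags per kb per 1000000 kept tags, against 1.38. Length by itself raises the chance of sharing a base, and its part was not tested. The control list was also divided into 3 equal classes by tag density. In the densest class 20 of 75 control peaks of members (26.7%, 17.1 to 38.1) were overlapped, and 12.2% (11.6 to 12.9) of the other control peaks. In the middle class the numbers were 0 of 34 (0 to 10.3) and 4.49%, and in the sparsest class 1 of 22 (4.55%, 0.115 to 22.8) and 2.78%. These intervals count peaks of the same gene as independent, and the difference between members and other control peaks was not tested. Zfp936 supplied 5 of the 20 overlapped peaks in the densest class. Without it 15 of 69 (21.7%, 12.7 to 33.3) were overlapped, an interval that meets that of the other control peaks.

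The same order was seen by gene when members were grouped by the length of their control cover. Of the members with under 2.5 kb of control cover, 0 of 15 (0 to 21.8%) had any knockdown cover, and 4.31% of other protein-coding genes in that class. Between 2.5 and 5 kb it was 2 of 20 members (10%, 1.23 to 31.7) and 8.77% of other genes. Between 5 and 10 kb it was 5 of 25 members (20%, 6.83 to 40.7) and 10.7% of other genes. At 10 kb or more it was 9 of 15 members (60%, 32.3 to 83.7) and 14.9% (13.7 to 16.1) of 3425 other genes. Without Zfp936 it was 8 of 14 members (57.1%, 28.9 to 82.3) in this last class. The class has no upper limit, so control cover was not matched within it. These intervals count neighbouring genes as independent, and the difference between members and other genes was not tested. Over all protein-coding genes 5.17% had any knockdown cover, and 16 of the 90 members.

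**Figure D4:**
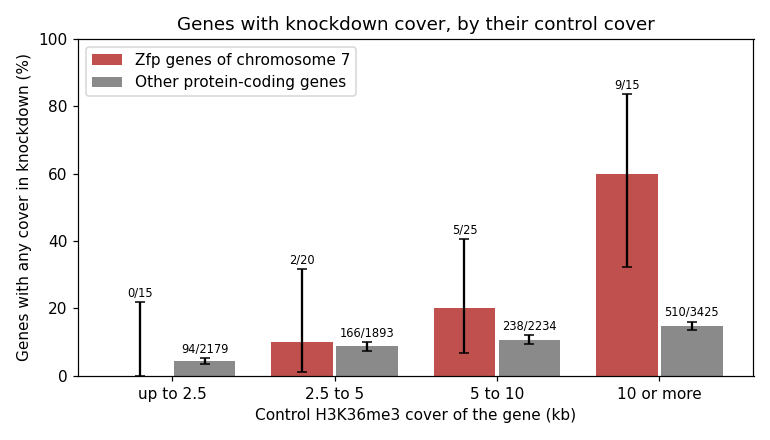
Percent of genes with any H3K36me3 cover in Setd2 knockdown, for Zfp genes of chromosome 7 (left bars) and all other protein-coding genes (right bars), by the kb of gene under control peaks. Error bars are exact 95% binomial intervals, and the numbers above give genes with knockdown cover over genes in the class, from 0 of 15 to 9 of 15 for the Zfp genes.

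Tag densities of overlapping peaks were then compared. They were scaled to the kept tags of their own ChIP library, as tags per kb per 1000000 kept tags, which does not measure absolute amounts of the mark, and control densities are means over longer peaks. In the 15 pairs outside Zfp936 the knockdown peak was less dense than the control peak it overlapped in every case. Densities ran from 1.07 to 1.93 (median 1.33) in knockdown and from 1.43 to 2.13 (median 1.72) in control, and their ratio from 0.629 (Zfp719) to 0.904 (Zfp180). In 9 of the 15 the interval of the ratio, from an exact comparison of Poisson counts, lay below 1. Such intervals cover counting error of tags in 1 merged list per condition. They hold no replicate spread and are not a test between conditions. Median peak length in these pairs was 1685 bp in knockdown and 8035 bp in control.

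In Zfp936 the pairs were more alike. The peak at chr7:43160246-43164566 in knockdown had 269 tags over 4321 bp and its control counterpart 313 tags over 4226 bp, a density ratio of 1.04 (0.877 to 1.22). The ratio was 1.02 (0.892 to 1.17) for the knockdown peak of 363 tags and the control peak of 517 tags further upstream. Among the 7 pairs the interval spanned 1 in 4, all upstream of the promoter window. In the other 3 it lay below 1. One of these was the upstream pair of 422 knockdown and 628 control tags, at 0.816 (0.720 to 0.925). The other 2 were the 3′ knockdown peaks that fell in the same control peak of 1046 tags, at 0.526 (0.444 to 0.621) and 0.751 (0.647 to 0.867). The authors' own fold over local background, which ranks peaks within a list, was 3.02 to 6.21 for the knockdown peaks of these 7 pairs and 3.10 to 5.86 for their control peaks.

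**Figure D5:**
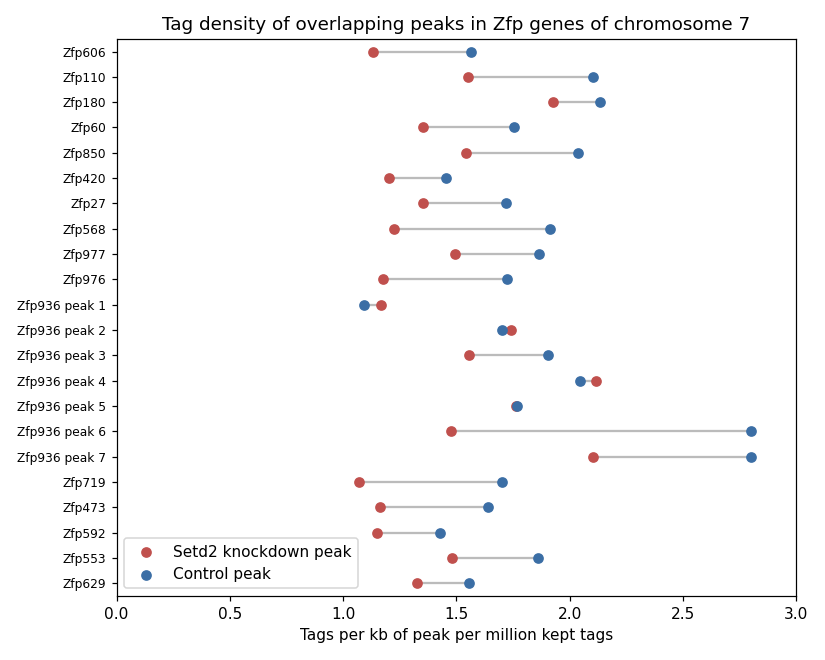
Tags per kb of peak per 1000000 kept tags for the 22 knockdown peaks in Zfp genes of chromosome 7 that overlap a control peak, and for the control peak that shares most sequence with each. The pairs run down the page in order along the chromosome, and each line joins the knockdown and the control value. Outside Zfp936 all 15 knockdown values lie left of the control values, and in Zfp936 peaks 1, 2 and 4 lie to the right.

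The cofactors through which KRAB zinc finger proteins act were looked at as a list of 23 genes. In this list 6 had a knockdown peak and 19 a control peak, and 4 of the 19 (21.1%, 6.05 to 45.6) had both. Over all protein-coding genes 4.95% had a knockdown peak, 41.2% a control peak, and 10.6% of those with a control peak had both, a share inside the interval of the list. Trim28, the corepressor itself, lies on chromosome 7 beyond the end of the run Zfp551 to Zfp446 and was covered over 81.0% of its length in knockdown and 92.0% in control. Uhrf1, which helps to maintain DNA methylation, had 16.0% in knockdown and 93.0% in control, Morc3 had 12.8% and 72.6%, and Morc2a, a partner of the HUSH silencing complex, had 3.75% and 52.1%. Chd4, the NuRD remodeller, and Dnmt1, the maintenance DNA methyltransferase, had knockdown cover over 8.56% and 2.92% of their length and no control cover. Setdb1, the H3K9 methyltransferase recruited by Trim28, had none in knockdown and 84.6% in control. Atrx and Suv39h1, both on the X chromosome, had no cover in either list.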

How the data were processed

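H3K36me3 ChIP-seq peak tables of Setd2 knockdown and control cells were used, called on both replicates merged. The submitters' processing notes name Bowtie 1.1.2, FastQC 0.11.5 and build mm10. Per the file headers, the authors ran MACS 1.4.2 against merged inputs with a p cutoff of 1e-05, 1 tag kept per position and the larger data set scaled to the smaller. Duplicate removal took 23.9% of knockdown and 14.7% of control ChIP tags. Deposited values were tag counts per peak, a score (minus 10 times log10 of the caller's p-value), the authors' fold enrichment as a ratio to local background and an FDR in percent. These were used to describe, rank or filter peaks within a list.

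Genes came from RefSeq (GRCm38.p6, chromosomes 1 to 19, X and Y), with strand from the promoter table. Covered length, peak midpoints and overlaps of at least 1 bp were computed with Python 3.11.15 and pandas 2.3.3, and intervals with SciPy 1.17.1. The interval code was tested on simulated data. Since each condition is 1 list, no p-value was computed, and the labels do not say whether replicates were separate cultures. Depth is given per merged library and limits which weak peaks could be called. Members and lists were chosen with earlier results of these data known. The named genes are all members with knockdown cover, the 10 with most control cover and none in knockdown, the highest of each run and, in the cofactor list, those with a knockdown peak. The members without cover, Zfp784, Zfp526, Zfp36, Zfp819 and Zfp941, and Setdb1, Atrx and Suv39h1, were named after their values were seen. Classes by control cover, density classes and density ratios were added after values had been seen. The planned counts of fingers and KRAB domains in proteins were not made, since no protein sequences were used here. Alternatives were other peak thresholds, gene limits, gap sizes and gene subsets.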

Additional observations from a re-analysis of the deposited data

How the results depend on the processing

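Of 64 alternative values 50 stayed within 1.5 times the reported count or length, or within the interval of the reported value. Some of the 50 could not have moved, so the tally does not measure robustness. Examples are the knockdown values when only the control list was thinned, and the knockdown median, already 0, under stricter peak limits. The members marked in knockdown, and those kept, numbered 16, but 4 with peaks of an FDR of 1% or less, 8 with a caller score of at least 100, and 7 when at least 10% of the gene had to be covered. The knockdown-covered length was 66449 bp, but 4551 bp with an FDR of 1% or less. It was 31004 bp without Zfp936 and 37805 bp with Zfp936 counted from its start site, both chosen after seeing the data. The peaks left at an FDR of 1% or less, in Zfp606, Zfp592, Zfp936 and Zfp568, had the lowest scores among members (50.3 to 57). This limit therefore did not pick the best-supported members. Among members, the caller's FDR was highest for the highest-scoring knockdown peaks. It was 7.5% for the peak of Zfp180, 5.63% for that of Zfp27, and 7.69% and 8.33% for peaks of Zfp936. The single knockdown peaks of Zfp180 and Zfp27 thus fail an FDR of 5%. With that limit 14 members were marked in knockdown and 47446 bp were covered. With only as many top-scoring control peaks as there are knockdown peaks, 26 members were marked in control, their median share was 0 and their covered length 233922 bp, while 12 were kept. With each peak covering at least 50% of the other, the overlapped share was 25% of knockdown and 4.58% of control peaks. Gaps of 0.5 and 2 Mb gave 21 and 12 runs in place of 17. The planned subset by number of zinc fingers was not run. No paired analysis was possible because the peaks were called on merged replicates, which also leaves no replicate to omit.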

Other observations

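Other genes inside the runs also carried peaks in both lists. Of the 173 protein-coding genes that lie within the runs and are not members, 10 of 73 with a control peak (13.7%, 6.77 to 23.8) had a knockdown peak too, near the 10.6% of all control-marked protein-coding genes. Srcap, which encodes the ATPase that exchanges histone H2A.Z into chromatin, lies in the run Zfp553 to Zfp646 and had 3 knockdown peaks over 11.2% of its length, and 26.6% of it was covered in control. Prr14 in the same run had 23.6% in knockdown and 70.6% in control. In the run Zfp60 to Zfp36, the proteasome gene Psmc4 had 19.1% in knockdown and 89.97% in control, and the elongation factor gene Supt5 had 6.27% and 87.1%. Zscan5b, a SCAN zinc finger gene of the run Zfp787 to Zfp772, had 11.7% in knockdown and 15.5% in control, although none of the 10 Zfp genes of that run had knockdown cover. The imprinted zinc finger gene Peg3 in the same run had none in knockdown and 14.8% in control. These genes were chosen after their values were seen.

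The stretch from the end of Zfp936 up to the next Zfp gene, Zfp715, held peaks with their midpoint outside any member. It had 2 knockdown peaks, at chr7:43197181-43200619 with 157 tags and at chr7:43224792-43227029 with 94 tags, 5072 and 32683 bp beyond the annotated end of Zfp936. The second of these lies in another protein-coding gene, EU599041, which was covered over 16.9% in knockdown and 40.7% in control. The control list had 11 peaks in the stretch. Some of them lie in EU599041 or the protein-coding gene Gm35588, and the last runs into Zfp715. Both knockdown peaks lay inside control peaks, of 367 and 334 tags. Zfp715 itself had no knockdown cover and 80.2% in control.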
